A study of Homo sapiens with 16 samples.

Results

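The S phase and DNA replication genes were followed in 2 bladder cancer cell lines after knock-down of FOXA1, a pioneer transcription factor of Luminal urothelial cells. The 41 genes are the rows of the count table whose gene name is on a list of genes used for DNA replication and S phase, out of 58721 genes in the table. All 41 had enough reads to be tested in both lines, where 11986 genes in RT112 and 11902 genes in SCaBER passed the filter on low counts. The rule uses the gene names alone, but the list was proposed with earlier results of these data known. They were split into 7 roles, namely licensing and helicase (8 genes), priming, synthesis and clamp (7), nucleotide supply (3), chromatin and histone supply (9), fork protection, checkpoint and repair (8), S phase entry (2) and other members (4).

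RT112 is a model of Luminal papillary tumours and SCaBER of Basal/squamous tumours. Each line was transfected with siFOXA1.1 or siFOXA1.2, which both target FOXA1, or with siControl.1 or siControl.2, at 10 nM per the labels, as a short-term knock-down with no change to the genome. Every siRNA had 2 libraries per line, labelled as experiment batch replicate 1 and 2, which gives 16 libraries of 3′ mRNA reads. Each subtype is represented by 1 line, so that line and subtype cannot be told apart. Per the methods of the paper, RT112 was grown in RPMI and SCaBER in DMEM, so that line and medium cannot be told apart either.

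DNA replication begins with licensing, when origins are loaded with the MCM helicase in G1, with CDC6 as a loading factor and GMNN (geminin) as the brake that prevents a repeat. CDC45 and the GINS complex then switch the helicase on, primase and DNA polymerase alpha lay down primers, RFC loads the PCNA sliding clamp, and FEN1 trims the flaps of Okazaki fragments. Deoxynucleotides come from ribonucleotide reductase (RRM1 and RRM2) and thymidylate synthase (TYMS), and new DNA is packed with histones by chaperones such as CAF-1 and NASP. Many of these genes are transcribed as cells pass from G1 into S phase, under the E2F family of transcription factors.

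The target came first as a check of the labels. FOXA1 in RT112 was at 34.9, 29.8, 17.8 and 27.3 CPM (counts scaled to a common library size with TMM factors) in the siControl libraries, at 1.39 and 3.53 CPM under siFOXA1.1 and at 9.17 and 15.9 CPM under siFOXA1.2. Control values are given here and throughout in the order siControl.1 replicate 1 and 2, then siControl.2 replicate 1 and 2. All 4 libraries with a FOXA1 siRNA were below all controls. The edgeR quasi-likelihood test gave FOXA1 -3.44 (log2 fold change, SE 0.47, adjusted p = 2.19e-05) under siFOXA1.1 and -1.10 (SE 0.39, adjusted p = 0.205) under siFOXA1.2, which did not pass the threshold of 0.05. In SCaBER FOXA1 was at 0.496 to 2.40 CPM in the controls and at 0 to 0.939 CPM under either FOXA1 siRNA, too low to be tested, so that the knock-down itself could not be measured there. Libraries held 6622473 to 7604581 counts in RT112 and 4528513 to 6914951 counts in SCaBER. The Luminal gene GATA3 had a median of 408 CPM in RT112 and 11.4 CPM in SCaBER, and the Basal keratin KRT5 of 134 and 474 CPM. KRT20, which marks Luminal umbrella cells, was at or near 0 in RT112.

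Under siFOXA1.1, S phase genes fell in both lines, and members of all 7 roles were among those that fell in each line. In RT112, 32 of the 41 genes were lower than in siControl and 0 were higher, against 17% of all genes tested called lower and 15.6% called higher. The median log2 fold change was -1.37 over the 41 genes and -0.01 over all genes. In SCaBER, 22 of the 41 were lower and 0 were higher, against 4.79% of all genes called lower and 4.47% called higher, and the median was -0.87 over the 41 genes and 0.01 over all genes. Both siFOXA1.1 libraries lay below all 4 control libraries for 33 of the 41 genes in RT112, against 24.8% of all genes, and for 30 of the 41 in SCaBER, against 15.2%. Fewer cells in S phase and less RNA of these genes per cell cannot be told apart in bulk libraries.

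Values within each experiment batch pointed the same way. The median change of the 41 genes was -1.07 in batch 1 and -1.65 in batch 2 in RT112 (log2 CPM against the controls of the same batch), and -0.86 and -1.03 in SCaBER. The RT112 siFOXA1.1 libraries also stood apart in mitochondrial reads, which made up 25.7% and 28.2% of their counts against 18% to 21.2% in the controls and 19.7% and 20.4% under siFOXA1.2. In SCaBER the share was 10.3% to 12.1% in all 8 libraries. With the mitochondrial genes taken out before scaling, the counts of S phase genes that fell were 32 and 22 and the medians -1.37 and -0.86. A summed list of 5 stromal and endothelial markers was at 59.3 and 61.2 CPM in the RT112 siFOXA1.1 libraries. It was at 10 to 17.9 CPM in the controls and at 12.5 and 25.5 CPM under siFOXA1.2. Over the 8 RT112 libraries COL1A1, a collagen chain, reached 59.5 CPM, the endothelial marker PECAM1 11.2 CPM (median 3.12) and COL1A2 0.482 CPM, while DCN and VWF had 0 counts in all of them. The COL1A1 maximum exceeded the whole sum in every control and siFOXA1.2 library, so it came from a siFOXA1.1 library, where COL1A1 made up most of the sum. The maxima of PECAM1 and COL1A2 are over all siRNAs and need not come from the siFOXA1.1 libraries. The part of this list in the S phase result was not tested.

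**Figure D1:**
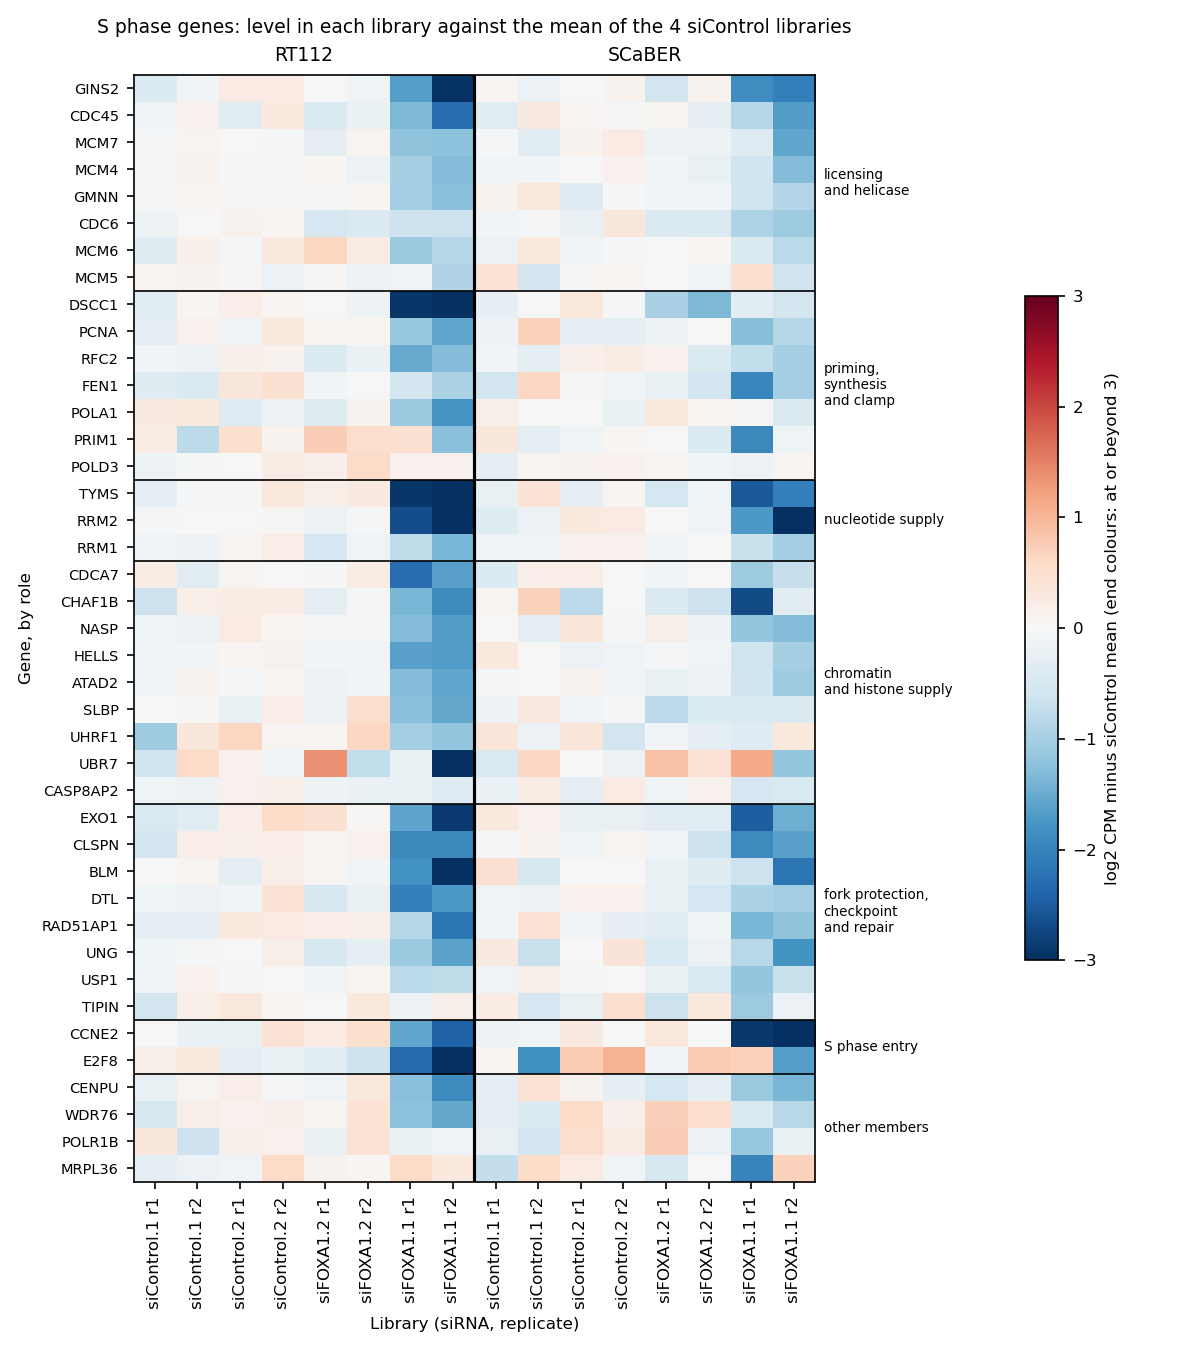
Each row is 1 of the 41 genes, grouped by role, and each column 1 of the 16 libraries. Colour is the log2 CPM of the library minus the mean of the 4 siControl libraries of its line, with values beyond 3 drawn at the end colours. The siFOXA1.1 columns are blue for most genes in both lines, and the siFOXA1.2 columns stay near the controls.

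Ordered by the median of each role, the falls were largest in nucleotide supply, a role of only 3 genes. The median log2 fold change under siFOXA1.1 was -3.27 in RT112 and -2.30 in SCaBER for the 3 genes of nucleotide supply, all of which fell in both lines. These medians rest on TYMS and RRM2. RRM1 was at -1.01 and -0.82, nearer to 0 than the medians of all 41 genes (-1.37 and -0.87). For 14 nucleotide supply genes outside the list, described below, the medians were -0.64 and -0.77, so the rank does not extend to them. Next came S phase entry over only 2 genes, with medians of -2.36 in RT112 (2 of 2 lower) and -1.64 in SCaBER (1 of 2). The SCaBER median lies midway between CCNE2 at -3.07 and E2F8 at -0.22, and describes neither gene. Fork protection, checkpoint and repair had -1.62 in RT112 (7 of 8 lower) and -1.27 in SCaBER (6 of 8). Chromatin and histone supply had -1.41 (6 of 9) and -0.78 (3 of 9). Priming, synthesis and clamp had -1.33 (5 of 7) and -0.78 (2 of 7). Licensing and helicase had -1.12 (7 of 8) and -0.88 (6 of 8). The 4 other members had -0.78 (2 of 4) and -0.63 (1 of 4). The order of the roles was not itself tested.

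**Figure D2:**
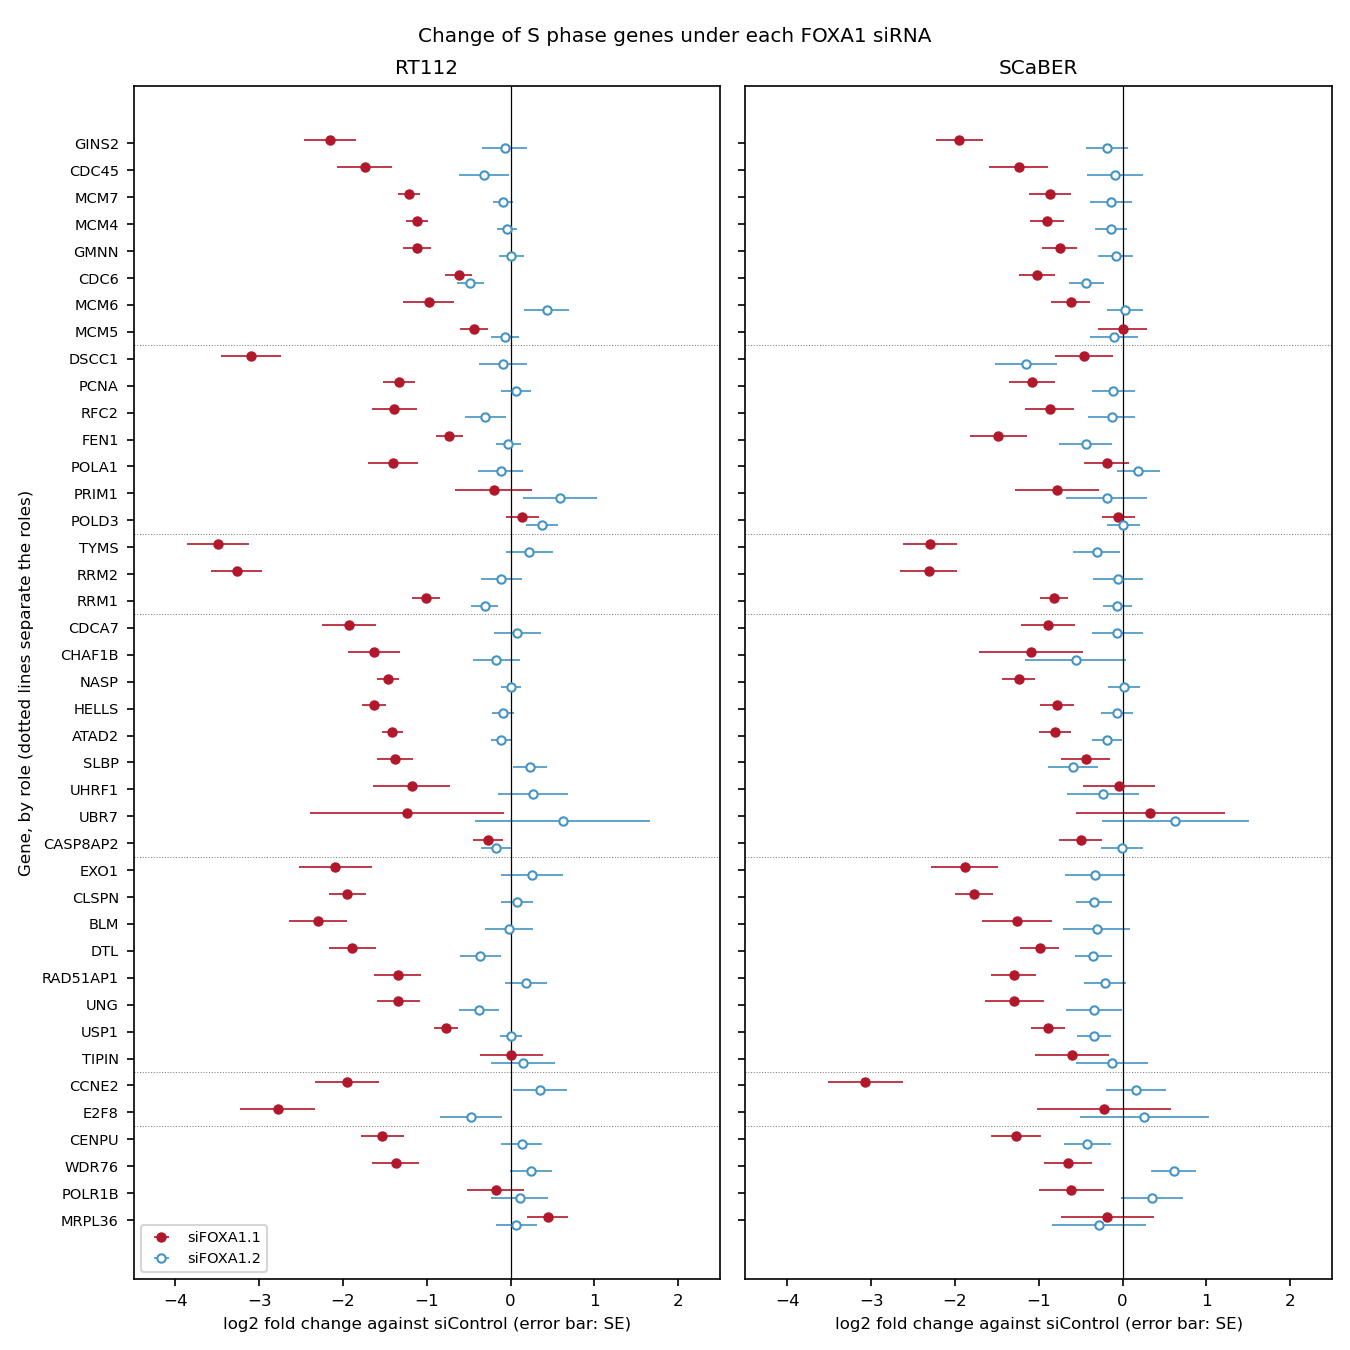
Points are log2 fold changes against siControl with their SE, with genes on the vertical axis in order of role, RT112 on the left and SCaBER on the right. Red points are siFOXA1.1 and open blue points siFOXA1.2. TYMS and RRM2 lie furthest left in RT112, at -3.49 and -3.27, and CCNE2 in SCaBER, at -3.07. The siFOXA1.2 points lie nearer to 0 for most genes, with 20 below it and 21 above in RT112 and 32 and 9 in SCaBER.

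The RefSeq promoter windows of GRCh38.p14 (250 bases before to 50 after the start site) were searched for 4 motifs on both strands. A window was found for 33 of the 41 genes, and none was found for MCM4, MCM5, POLD3, DSCC1, ATAD2, CCNE2, E2F8 and WDR76. The E2F site, searched as TTT, then 2 letters that are each C or G, then CGC, was present for 19 of the 33 genes (57.6%), against 3.99% of all 27305 genes with a window. The CCAAT box was present for 24 (72.7%) against 39.7% of all genes. The cell cycle homology element TTTGAA was present for 3 (9.09%) against 18.2%. The FOXA motif TGTTTAC was present for 1, MCM7 (3.03%), against 4.19%. These shares describe the list of genes, whichever way its genes moved. The genes with a window include many that were not tested here. A letter match is no evidence of binding, and matches that overlap on the 2 strands were counted apart. Genes with an E2F match had a median log2 fold change of -1.34 in RT112 (15 of 19 lower) and of -0.89 in SCaBER (12 of 19). Genes with a window and no match had -1.36 (11 of 14) and -0.99 (7 of 14), and these values are a description with no test.

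The stretches just before the start site are shown for members of nucleotide supply (TYMS, RRM2), helicase (GINS2), clamp (PCNA) and chromatin (CDCA7), to show where the matches lie. All 5 genes fell in RT112, and all but CDCA7 in SCaBER. They are written 5′ to 3′ on the strand of the gene, with E2F and CCAAT matches on either strand in capitals.
TYMS, chr18:657503-657652, plus strand: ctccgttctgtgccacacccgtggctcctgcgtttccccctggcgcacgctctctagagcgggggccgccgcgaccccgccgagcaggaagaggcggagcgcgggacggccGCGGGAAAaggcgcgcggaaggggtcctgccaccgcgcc
RRM2, chr2:10122589-10122738, plus strand: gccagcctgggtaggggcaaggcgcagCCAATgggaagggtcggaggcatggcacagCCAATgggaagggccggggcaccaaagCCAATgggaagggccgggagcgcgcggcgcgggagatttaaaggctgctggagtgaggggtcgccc
GINS2, chr16:85688955-85689124, minus strand: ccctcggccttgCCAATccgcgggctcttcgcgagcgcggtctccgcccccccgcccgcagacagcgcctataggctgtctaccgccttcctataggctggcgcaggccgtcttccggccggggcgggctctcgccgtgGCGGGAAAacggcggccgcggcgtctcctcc
PCNA, chr20:5126623-5126782, minus strand: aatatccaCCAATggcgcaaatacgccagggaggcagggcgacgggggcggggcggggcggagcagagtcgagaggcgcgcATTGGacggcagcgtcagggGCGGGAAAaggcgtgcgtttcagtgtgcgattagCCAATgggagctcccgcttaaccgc
CDCA7, chr2:173354722-173354871, plus strand: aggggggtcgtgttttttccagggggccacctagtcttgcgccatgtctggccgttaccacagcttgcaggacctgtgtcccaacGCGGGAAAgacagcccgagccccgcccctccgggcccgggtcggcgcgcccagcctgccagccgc
TYMS, GINS2, PCNA and CDCA7 each held 1 E2F match in these stretches. RRM2 held 3 CCAAT boxes, PCNA 3 and GINS2 1.

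Nucleotide supply held the deepest falls of the list in RT112, those of TYMS and RRM2, while CCNE2 fell furthest in SCaBER. TYMS, which makes thymidylate for DNA, was at 32.5, 38.1, 41.1 and 49.7 CPM in the RT112 controls, at 5.24 and 1.77 CPM under siFOXA1.1 and at 45.1 and 48 CPM under siFOXA1.2. The siFOXA1.1 libraries lay far below every other library, at 8.93% of control (log2 fold change -3.49, SE 0.37, adjusted p = 1.16e-06). In SCaBER TYMS was at 49.8, 78.2, 48.1 and 62 CPM in the controls, at 10.1 and 13.9 CPM under siFOXA1.1 and at 40.6 and 54.4 CPM under siFOXA1.2. Again only the siFOXA1.1 libraries were clear of the controls, at 20.4% of their level (-2.30, SE 0.32, adjusted p = 0.000477).

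RRM2, the regulated small subunit of ribonucleotide reductase, was at 322, 332, 338 and 345 CPM in the RT112 controls, at 53.2 and 15.1 CPM under siFOXA1.1 and at 296 and 321 CPM under siFOXA1.2. The fall was to 10.4% of control (-3.27, SE 0.30, adjusted p = 2.28e-07). In SCaBER its controls were at 73.6, 84.1, 116 and 114 CPM, siFOXA1.1 at 28.6 and 10.2 CPM and siFOXA1.2 at 95.5 and 88.1 CPM, a fall to 20.2% under siFOXA1.1 (-2.31, SE 0.34, adjusted p = 0.000777). In both lines the second siFOXA1.1 library had the lower RRM2 level. The large catalytic subunit RRM1 fell less, to 49.6% of control in RT112 (-1.01, SE 0.17, adjusted p = 0.000133) and to 56.6% in SCaBER (-0.82, SE 0.17, adjusted p = 0.00779), with all siFOXA1.1 libraries below all controls.

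TYMS shares its 3′ end with ENOSF1, a coding gene on the other strand, and the strand setting of the counting was detected by the pipeline rather than stated. ENOSF1 had log2 fold changes of -0.31 (adjusted p = 0.264) in RT112 and 0.34 (adjusted p = 0.464) in SCaBER under siFOXA1.1. GINS2, CCNE2 and CENPU also have a coding gene on the other strand within 1000 bases of their 3′ end (GSE1, INTS8 and PRIMPOL), which makes 4 of the 41 members with such a partner.

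**Figure D3:**
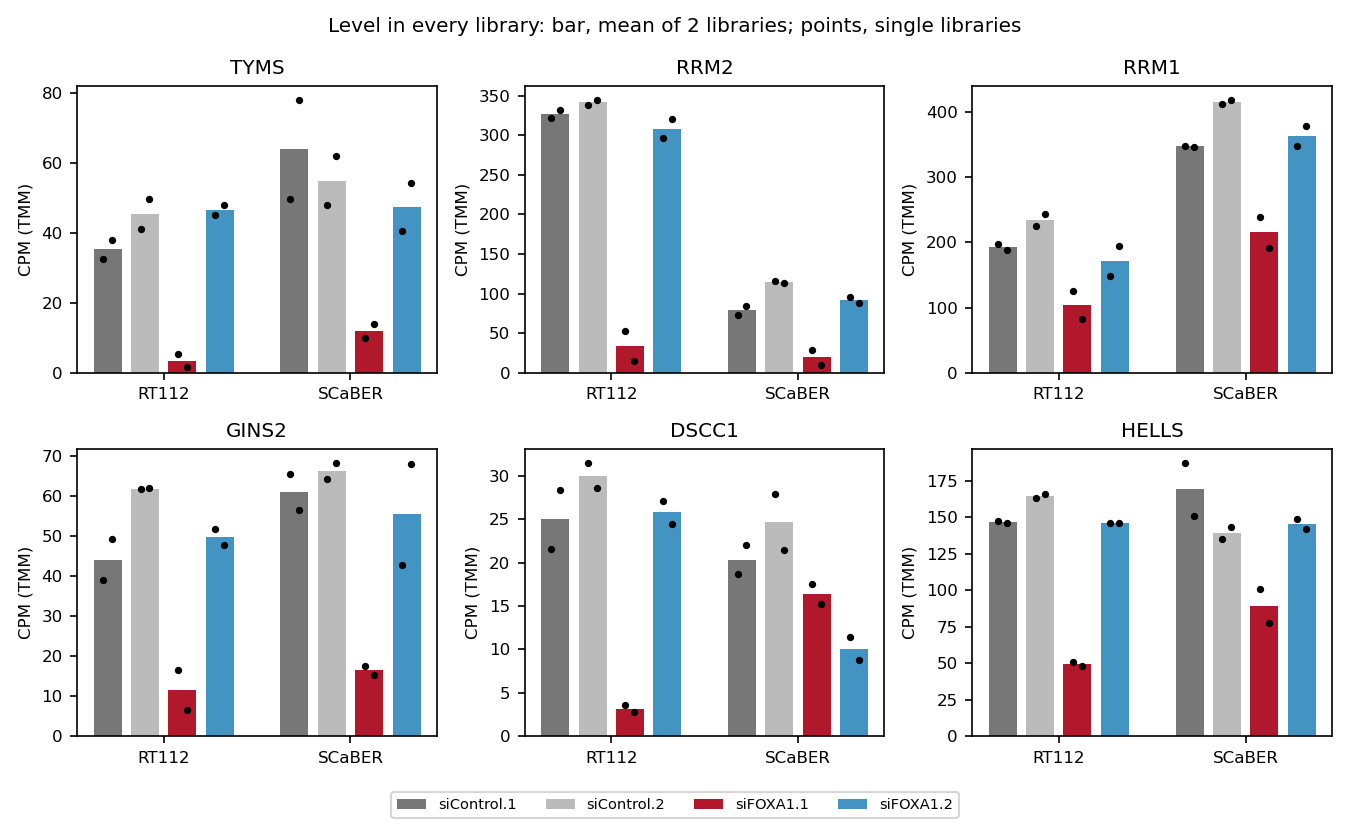
Bars are the mean CPM of 2 libraries for each siRNA, points the single libraries, with RT112 on the left and SCaBER on the right of each panel. The siFOXA1.1 bars are the lowest in both lines for the genes drawn, except for DSCC1 in SCaBER, where siFOXA1.2 is lower.

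Among the licensing and helicase genes the helicase activators fell the most. GINS2, a subunit of the GINS complex that activates the helicase, was at 39.1, 49.2, 61.7 and 62.1 CPM in the RT112 controls, at 16.5 and 6.58 CPM under siFOXA1.1 and at 51.8 and 47.9 CPM under siFOXA1.2. It fell to 22.4% of control (-2.16, SE 0.31, adjusted p = 3.19e-05), with no overlap between siFOXA1.1 and any other library. In SCaBER GINS2 was at 65.5, 56.6, 64.2 and 68.3 CPM in the controls, at 17.5 and 15.4 CPM under siFOXA1.1 and at 42.9 and 68.1 CPM under siFOXA1.2. It fell to 25.8% (-1.95, SE 0.28, adjusted p = 0.000656), the largest fall of this role in that line too.

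CDC45, the other helicase activator, had changes of -1.74 (adjusted p = 0.000481) in RT112 and -1.24 (adjusted p = 0.0402) in SCaBER. Of the MCM subunits, MCM7 fell by 1.21 in RT112 and 0.86 in SCaBER (log2, adjusted p = 1.22e-06 and 0.0462) and MCM4 fell by 1.12 and 0.90 (3.69e-06 and 0.011). MCM6 fell in RT112 (-0.98, adjusted p = 0.0165) and was at -0.62 in SCaBER (adjusted p = 0.114). MCM5 was at -0.44 (adjusted p = 0.0643, and 0.0283 with the replicate as a block) in RT112 and at 0.00 (0.995) in SCaBER, the only member of this role that passed in neither line. GMNN fell by 1.12 and 0.75 (4.69e-05 and 0.0398). CDC6, which loads the helicase, fell by 0.62 in RT112 (0.00701) and by 1.02 in SCaBER (0.00945). The call for MCM6 in RT112 was lost in 4 of 19 alternative settings, with adjusted p up to 0.0858, and its change stayed between -1.15 and -0.85.

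Priming, synthesis and clamp genes ranged from -3.10 to 0.14 in RT112 and from -1.48 to -0.05 in SCaBER. DSCC1, part of the alternative clamp loader that also serves sister chromatid cohesion, was at 21.6, 28.4, 31.5 and 28.6 CPM in the RT112 controls, at 3.54 and 2.73 CPM under siFOXA1.1 and at 27.1 and 24.5 CPM under siFOXA1.2. It fell to 11.6% of control (-3.10, SE 0.36, adjusted p = 3.81e-06), the third largest fall of the list in RT112. In SCaBER its controls were at 18.7, 22, 27.9 and 21.5 CPM, siFOXA1.1 at 17.5 and 15.2 CPM and siFOXA1.2 at 11.4 and 8.76 CPM. There the siFOXA1.2 libraries were the lowest, and neither change passed the threshold (-0.46, adjusted p = 0.499 for siFOXA1.1 and -1.15, SE 0.37, adjusted p = 0.652 for siFOXA1.2).

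PCNA, the sliding clamp, fell in both lines, by 1.33 in RT112 (SE 0.19, adjusted p = 3.85e-05) and by 1.08 in SCaBER (SE 0.28, adjusted p = 0.0235). RFC2, a clamp loader subunit, fell in RT112 (-1.39, adjusted p = 0.000705) and was at -0.87 in SCaBER (0.0759). POLA1, the catalytic subunit of polymerase alpha, fell in RT112 (-1.40, adjusted p = 0.00145) and was at -0.19 in SCaBER (0.747). FEN1 fell by 1.48 in SCaBER (adjusted p = 0.0126) and by 0.73 in RT112 (0.00144). In RT112 the control siRNAs differed for FEN1, with 93.2 and 88.8 CPM under siControl.1, 153 and 167 CPM under siControl.2 and 81.7 and 62.6 CPM under siFOXA1.1. Against siControl.1 alone the change was -0.32 (adjusted p = 0.185). PRIM1, a primase subunit, and POLD3, a subunit of polymerase delta, did not pass in either line, with -0.20 and 0.14 in RT112 and -0.78 and -0.05 in SCaBER.

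Of the chromatin and histone supply genes, 6 of 9 fell in RT112 and 3 of 9 in SCaBER. CDCA7, a partner of the remodeller HELLS, was at 35, 23.9, 31.4 and 30.1 CPM in the RT112 controls, at 6.01 and 9.64 CPM under siFOXA1.1 and at 29.2 and 34.4 CPM under siFOXA1.2. It fell to 26.3% of control (-1.93, SE 0.32, adjusted p = 0.000165) with no overlap. In SCaBER CDCA7 was at 22, 34.1, 34 and 29.7 CPM in the controls, at 14 and 18.3 CPM under siFOXA1.1 and at 27.7 and 29.7 CPM under siFOXA1.2. Both siFOXA1.1 libraries were below all controls, but the change did not pass (-0.89, SE 0.32, adjusted p = 0.103).

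HELLS, a remodeller needed for DNA methylation, was at 147, 146, 163 and 166 CPM in the RT112 controls, at 50.6 and 48.3 CPM under siFOXA1.1 and at 146 and 146 CPM under siFOXA1.2. It fell to 32.2% of control (-1.63, SE 0.14, adjusted p = 1.47e-07). In SCaBER it was at 187, 151, 135 and 143 CPM in the controls, 101 and 77.2 CPM under siFOXA1.1 and 149 and 142 CPM under siFOXA1.2, a fall to 58.1% (-0.78, SE 0.20, adjusted p = 0.0237). NASP, a chaperone of histone H3 and H4, fell in both lines (-1.46 and -1.24, adjusted p = 2.19e-07 and 0.00136), as did ATAD2, a bromodomain ATPase (-1.41 and -0.81, 2.63e-07 and 0.0137). CHAF1B, a subunit of CAF-1, fell in RT112 (-1.63, 0.000526) and was at -1.09 in SCaBER (0.327), where its siFOXA1.1 libraries were at 1.75 and 9.53 CPM. SLBP, which binds histone mRNA, fell in RT112 (-1.38, 0.000102) and was at -0.44 in SCaBER (0.422). UHRF1, CASP8AP2 and UBR7 passed in neither line, though UHRF1 in RT112 passed in 6 of 19 alternative settings (-1.47 to -0.76, adjusted p from 0.0199 to 0.242), and UBR7 was at 8.44 CPM or less in every library.

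Of the fork protection, checkpoint and repair genes, 7 of 8 fell in RT112 and 6 of 8 in SCaBER. EXO1, an exonuclease of mismatch repair and end resection, was at 12.5, 13.8, 19.8 and 25.3 CPM in the RT112 controls, at 5.7 and 2.25 CPM under siFOXA1.1 and at 23.3 and 17.4 CPM under siFOXA1.2. It fell to 23.5% of control (-2.09, SE 0.44, adjusted p = 0.00129). In SCaBER EXO1 was at 29.8, 26.4, 21.4 and 20.8 CPM in the controls, at 4.28 and 8.82 CPM under siFOXA1.1 and at 19.1 and 19.6 CPM under siFOXA1.2. It fell to 27.2% (-1.88, SE 0.40, adjusted p = 0.00861), and siFOXA1.1 overlapped no control library in either line.

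CLSPN (claspin), which carries the ATR signal to CHEK1, fell by 1.95 in RT112 and by 1.77 in SCaBER (adjusted p = 2.59e-06 and 0.000229). DTL, which directs the destruction of CDT1 at the fork, fell by 1.89 and 0.99 (4.68e-05 and 0.0146). BLM, a helicase that undoes recombination intermediates, fell in RT112 (-2.30, 5.31e-05) and was at -1.26 in SCaBER (0.0802, and 0.0227 with the replicate block). RAD51AP1, a factor in homologous recombination, fell by 1.35 and 1.30 (0.000978 and 0.00682), and UNG, which removes uracil from DNA, fell by 1.34 and 1.29 (0.000634 and 0.0296). USP1, which takes ubiquitin off PCNA, fell by 0.77 and 0.89 (0.000361 and 0.0123). TIPIN, a fork protection factor, was at 0.01 in RT112 (0.989) and -0.60 in SCaBER (0.471) and passed in neither.

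S phase entry was represented by a cyclin, which fell in both lines, and an E2F factor, which passed the threshold in RT112 alone. CCNE2, cyclin E2, was at 21.9, 19.1, 18.8 and 30.1 CPM in the RT112 controls, at 7.4 and 4.02 CPM under siFOXA1.1 and at 26.2 and 30.8 CPM under siFOXA1.2. It fell to 25.9% of control (-1.95, SE 0.38, adjusted p = 0.000582). In SCaBER CCNE2 was at 17.7, 18, 23.6 and 19.5 CPM in the controls, at 2.53 and 2.13 CPM under siFOXA1.1 and at 24.3 and 19.6 CPM under siFOXA1.2. It fell to 11.9% (-3.07, SE 0.45, adjusted p = 0.000653), the largest fall of the 41 genes in that line. The difference between the lines did not pass (1.11, SE 0.54, adjusted p = 0.319).

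E2F8, an atypical E2F that represses E2F targets, was at 22.3, 24, 16.2 and 17 CPM in the RT112 controls, at 3.85 and 1.77 CPM under siFOXA1.1 and at 15.4 and 12.8 CPM under siFOXA1.2. It fell to 14.6% of control (-2.78, SE 0.45, adjusted p = 0.000108). In SCaBER E2F8 was at 5.3, 1.36, 8.62 and 10.4 CPM in the controls, at 8.17 and 1.56 CPM under siFOXA1.1 and at 4.77 and 8.61 CPM under siFOXA1.2. These groups overlapped fully (-0.22, SE 0.80, adjusted p = 0.914), and the values of replicate 1 and 2 lay further apart than the groups.

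Of the other members, CENPU, a centromere protein, was at 40, 49.7, 53.3 and 45.6 CPM in the RT112 controls, at 19.4 and 12.7 CPM under siFOXA1.1 and at 43.8 and 58.9 CPM under siFOXA1.2. It fell to 34.5% of control (-1.53, SE 0.26, adjusted p = 0.000193). In SCaBER CENPU was at 41.9, 68.8, 55.4 and 42.7 CPM in the controls, at 23.7 and 19.6 CPM under siFOXA1.1 and at 35.2 and 42.2 CPM under siFOXA1.2, a fall to 41.5% (-1.27, SE 0.30, adjusted p = 0.0156). WDR76, a WD-repeat protein, fell in RT112 (-1.37, 0.00102) and was at -0.65 in SCaBER (0.194). POLR1B, a subunit of RNA polymerase I, and MRPL36, a mitochondrial ribosomal protein, passed in neither line, with -0.18 and 0.44 in RT112 and -0.61 and -0.18 in SCaBER.

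Under siFOXA1.2 no S phase gene passed the threshold in either line. In RT112, 0 of the 41 passed against 2.04% of all genes called in either direction, and the median log2 fold change was 0.00. An unadjusted p under 0.05 was found for 1 of the 41 (CDC6, -0.48, SE 0.16), against 1454 of all 11986 genes. In SCaBER, 0 of the 41 passed against 0.042% of all genes, and the median was -0.14. There 2 of the 41 had an unadjusted p under 0.05 (DSCC1, -1.15, and WDR76, 0.61), against 634 of all 11902 genes. There 32 of the 41 changes were below 0 and 9 above, against 5850 and 6052 of all genes. In RT112 they were 20 and 21, and this split was not tested. Both siFOXA1.2 libraries lay below all 4 controls for 6 genes in RT112, against 10.6% of all genes, and for 8 in SCaBER, against 7.82%. DESeq2 on the counts and limma on log2(TPM + 1) also called 0 of the 41 in each line. The median change within batch 1 and 2 was -0.03 and -0.07 for RT112, and -0.10 and -0.15 for SCaBER.

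Set against each other, the FOXA1 siRNAs differed. In RT112, 32 of the 41 genes were lower under siFOXA1.1 than under siFOXA1.2, against 15.1% of all genes, and 0 were higher, against 13%. In SCaBER, 9 were lower, against 2.8% of all genes, and 0 were higher, against 2.05%. The 9 were TYMS, RRM1, RRM2, GINS2, NASP, CLSPN, RAD51AP1, CCNE2 and WDR76, with log2 differences from -0.76 (RRM1) to -3.24 (CCNE2). The SCaBER count fell to 4 without either siFOXA1.2 library and reached 15 without siFOXA1.1 replicate 1. With the siRNAs pooled against siControl, 0 of the 41 passed in either line (edgeR), against 0.108% of all genes in RT112 and 0.0084% in SCaBER. DESeq2 and limma called 0 as well. An unadjusted p under 0.05 in edgeR was found for 7 of the 41 in RT112, against 1454 of all 11986 genes. In SCaBER it was found for 14 of the 41, against 1059 of all 11902 genes. The control siRNAs differed for 1 gene in RT112, against 2.36% of all genes, which was FEN1 (-0.80, SE 0.17, adjusted p = 0.018, siControl.1 minus siControl.2). This call was lost when any 1 of the 4 control libraries was left out, in 1 fit of all 16 libraries and in limma. In SCaBER they differed for 0 (edgeR, DESeq2 and limma) against 0.0672%, and 1 had an unadjusted p under 0.05, against 790 of all 11902 genes.

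Between the lines the siFOXA1.1 changes were ordered alike in part. Over the 41 genes Pearson's r was 0.523 and Spearman's rho 0.527, given as a description, since genes are not independent and share libraries within a line. The 22 genes that fell in SCaBER all fell in RT112, which is 68.8% of the RT112 genes and 100% of the SCaBER genes. With 32 of the 41 lower in RT112 a large overlap is likely in any case, and the overlap over all genes was not counted. RT112 had the more negative change for 31 of 41 genes, against 7078 of all 13701 genes. The difference itself passed the threshold for 2 genes, against 3.14% of all genes called in either direction, and both had the more negative change in RT112. DSCC1 differed by -2.66 (SE 0.47, adjusted p = 0.00373) and HELLS by -0.87 (SE 0.23, adjusted p = 0.0459), RT112 minus SCaBER. The HELLS call was lost under most of the settings that left out 1 library, with adjusted p up to 0.153. DSCC1 kept its call under each of them. E2F8 had the second largest difference at -2.56 and did not pass (SE 0.88, adjusted p = 0.135).

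**Figure D4:**
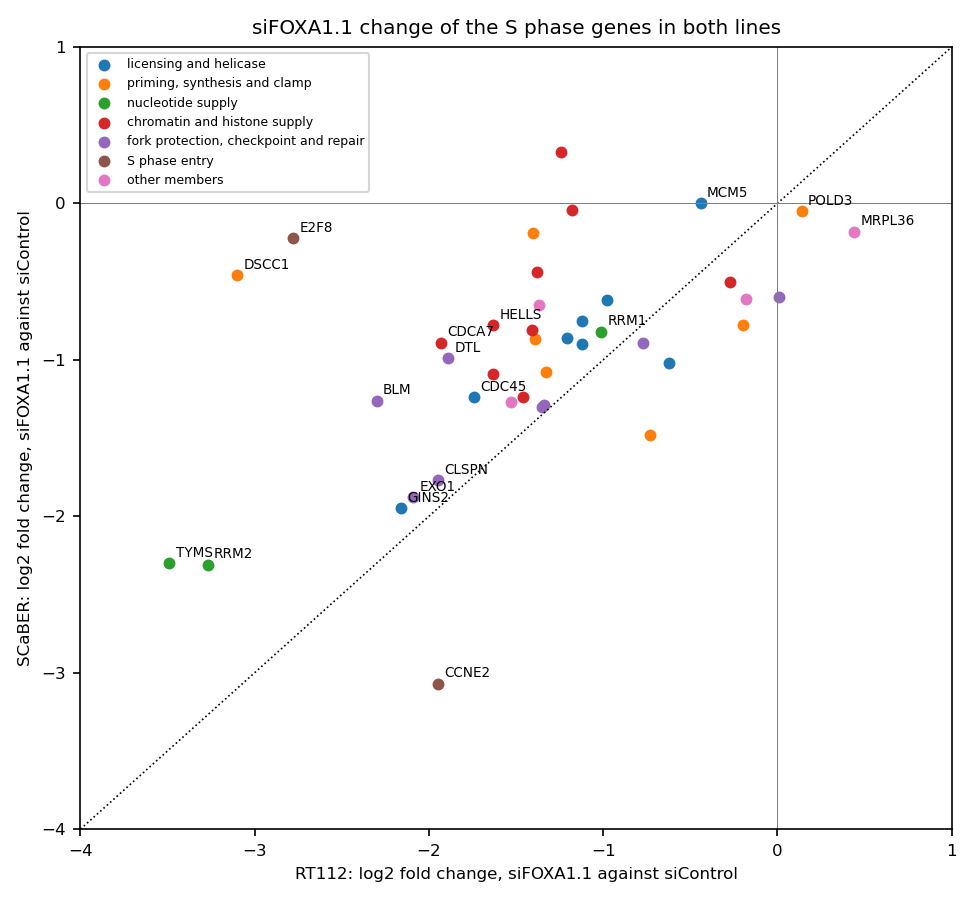
Each point is 1 of the 41 genes, with its siFOXA1.1 log2 fold change in RT112 on the horizontal axis and in SCaBER on the vertical axis, coloured by role. TYMS and RRM2 lie low in both lines, CCNE2 is lowest in SCaBER at -3.07, and DSCC1 and E2F8 fall far to the left with values of -0.46 and -0.22 in SCaBER.

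In the siControl libraries 8 of the 41 were lower and 5 higher in RT112 than in SCaBER, against 22.7% and 20.8% of all genes, so that neither share exceeded that of all genes. limma on log2(TPM + 1) gave 19 lower and 4 higher, with the median of all genes at -0.31. Lower in RT112 were MCM6 (-1.62), POLD3 (-1.16), CLSPN (-0.95), MCM4 (-0.92), RRM1 (-0.84), DTL (-0.81), MCM7 (-0.67) and USP1 (-0.36). Higher were RRM2 (1.81), E2F8 (1.80), CHAF1B (1.54), SLBP (1.31) and PCNA (0.61). E2F8, the member with the second largest of these differences among the higher genes, was at 1.36 to 10.4 CPM in the SCaBER controls.

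A list of 69 other replication genes was read beside the 41, of which 68 were tested in each line. Under siFOXA1.1, 35 fell and 4 rose in RT112 (median -0.85), and 25 fell and 0 rose in SCaBER (median -0.76). Of all genes 17% fell and 15.6% rose in RT112, and 4.79% and 4.47% in SCaBER. Origin firing had 9 of 12 lower in RT112 (median -1.28) and 4 of 12 in SCaBER (-0.76). Origin recognition and licensing had 7 of 11 (-1.40) and 6 of 11 (-1.05). Nucleotide supply in this list had 7 of 14 lower in each line, with medians of -0.64 in RT112 and -0.77 in SCaBER. Polymerases, loaders and single-strand binding had medians of -0.85 and -0.58, and fork and chromatin of -0.80 and -0.48. In RT112 the nucleotide supply median was the nearest to 0 of these groups. The largest falls past the threshold in RT112 were those of DBF4B, FBXO5 and TICRR. DBF4B, a regulator of the CDC7 kinase, was at -3.30 (adjusted p = 0.00653). FBXO5, an inhibitor of the anaphase-promoting complex, was at -2.95 (3.75e-06), and TICRR, which helps load CDC45, at -2.66 (0.000134). DBF4B had 0 and 10 counts in the siFOXA1.1 libraries, and its change ran from -8.85 without replicate 2 to -1.49 in limma on log2(TPM + 1), so its rank is not firm, while FBXO5 stayed between -3.43 and -2.60. The largest falls past the threshold in SCaBER were those of TICRR (-2.17, 0.0121), ORC1, an origin recognition subunit (-1.91, 0.0217), and RFC4, a clamp loader subunit (-1.52, 0.0187). Their calls were lost in 2, 4 and 6 of 19 alternative settings, with adjusted p up to 0.0676, 0.1 and 0.069. The lowest value of the list in SCaBER was -2.67, in polymerases, loaders and single-strand binding, and is not among those named.

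The 4 genes that rose in RT112 were named after their values were seen. They were POLE4 (0.98, adjusted p = 0.00173) and POLE3 (0.39, 0.0217), the small histone-fold subunits of polymerase epsilon, RFC1, the large clamp loader subunit (0.93, 1.17e-05), and RPA2, a subunit of the single-strand binding protein (0.57, 0.0101). The rises of POLE3 and RPA2 failed the threshold in 8 and 4 of 19 alternative settings. Under siFOXA1.2, 2 of the 68 (2.94%, against 2.04% of all genes called in either direction) were lower in RT112. They were RPA3 (-0.83, adjusted p = 0.0146) and ATIC (-0.66, 0.0181), also named after their values were seen. In SCaBER 0 of the 68 passed, and 5 had an unadjusted p under 0.05, against 634 of all 11902 genes. The line difference passed for 1 gene of this list, FBXO5 (-1.77, adjusted p = 0.0459, and up to 0.207 when 1 library was left out).

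Stability differed between the lines. In RT112, 30 of the 32 falls kept their call in all 19 alternative settings, and FEN1 and MCM6 did not. In SCaBER, 9 of the 22 did so, namely TYMS, RRM1, RRM2, GINS2, NASP, EXO1, CLSPN, RAD51AP1 and CCNE2. The other 13 lost it in 1 (CDC6) to 9 (MCM7) of the settings. Genes that did not pass gained a call in some settings, in RT112 UHRF1 in 6, MCM5 in 5, and CASP8AP2 and UBR7 in 1 each, and in SCaBER BLM in 4, RFC2 in 3, and CHAF1B and MRPL36 in 1 each. Without siControl.2 replicate 1 the SCaBER count was 11 of 41, and without siControl.2 replicate 2 it was 12. No gene that fell in either line turned its direction in any setting. These tests measure the spread between 2 libraries per siRNA, which may be technical, since nothing in the labels says that replicates came from separate cultures.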

How the data were processed

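Reads came from 16 QuantSeq FWD 3′ mRNA libraries of RT112 and SCaBER. Per the labels and methods, the authors trimmed reads with TrimGalore 0.6.2, aligned them with STAR 2.6.1a and counted them per gene with the GENCODE 29 annotation in release 3.1.6 of an RNA-seq pipeline, which detects strandedness itself. The processing notes name hg38 and the methods hg19. The deposited counts are whole reads per gene, and the deposited TPM values were normalised to a common library total by the authors. Both tables carry all 16 libraries.

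Counts were tested with the quasi-likelihood F test of edgeR 4.0.16 in R 4.3.3, in 1 fit per line over its 8 libraries with TMM scaling and filterByExpr, and p-values were adjusted by Benjamini-Hochberg over all genes tested (threshold 0.05). Differences between lines came from 1 fit of all 16 libraries with 13701 genes. The SE is the log2 fold change divided by the root of F. Printed CPM is TMM-scaled over 16 libraries, and log2 CPM adds 0.5 counts. Within-batch values compare libraries of the same batch number. Scripts were tested on simulated data.

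The members and lists were chosen with earlier results of these data known. Every member may be named. Values in every library are given for the member with the largest mean fall under siFOXA1.1 in each role, for the 2 members with the largest line difference, for those past the threshold in that difference, and for RRM2 and FEN1, chosen after their values were seen. The 3 largest falls past the threshold per line are named from the other replication genes.

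Batch labels tie same-numbered libraries together, so a fit with the replicate as a block was run beside the main one. Deviations of same-numbered libraries correlated from -0.009 to 0.008 in RT112 and from 0.001 to 0.118 in SCaBER (6 pairs of siRNAs each). Alternatives were DESeq2 1.42.0, its size factors in edgeR, library totals alone, limma 3.58.1 on log2(TPM + 1), other filters, 1 control siRNA alone, no mitochondrial genes, 1 fit of all libraries and leaving out each library. Counts at 4528513 or more per library limit the precision for genes near 10 CPM and below. Promoter windows are those of RefSeq on GRCh38.p14, and partners on the other strand come from gene models of GENCODE 44.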

Additional observations from a re-analysis of the deposited data

Results flagged for a closer look

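A library stood far from the other 3 of its target group in its line in 12 of 164 groups of 4 examined (7.32%). Chance gives about 1 in 20 where the 4 libraries are alike. The FOXA1 groups mix siFOXA1.1 with siFOXA1.2, which differed for many of these genes, so that rate does not hold for them. In RT112, siControl.1 replicate 1 was the lowest of the 4 controls for CHAF1B (22.6 CPM, next 39), CLSPN (59.5 CPM, next 97.6) and WDR76 (25.3 CPM, next 38.8). MCM4 was highest in siControl.1 replicate 2 (313 CPM, next 284), and DTL (55.9 CPM, next 38.9) and MRPL36 (45.9 CPM, next 28) were highest in siControl.2 replicate 2. With a FOXA1 siRNA, PRIM1 was lowest in siFOXA1.1 replicate 2 (4.98 CPM, next 16.3) and POLD3 highest in siFOXA1.2 replicate 2 (72 CPM, next 53.8).

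In SCaBER, POLD3 was lowest in siControl.1 replicate 1 (87.9 CPM, next 113) and PCNA highest in siControl.1 replicate 2 (111 CPM, next 61.9). CHAF1B was lowest in siFOXA1.1 replicate 1 (1.75 CPM, next 7.67) and SLBP in siFOXA1.2 replicate 1 (18.6 CPM, next 23.7).

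The siFOXA1.1 change differed between the lines by the interaction test in edgeR for DSCC1 (-2.66, adjusted p = 0.00373) and HELLS (-0.87, adjusted p = 0.0459), RT112 minus SCaBER. DSCC1 was lower in 2 of 2 siFOXA1.1 libraries than in all 4 controls in each line.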

How the results depend on the processing

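Under siFOXA1.1, 30 to 35 S phase genes passed in RT112 and 18 to 24 in SCaBER over the 11 settings other than leaving out 1 library, all of them lower. Leaving out 1 library gave 31 to 33 in RT112 and 11 to 20 in SCaBER (lowest without siControl.2 replicate 1), and a SCaBER median of -0.99 to -0.83. In the comparison of the FOXA1 siRNAs in SCaBER the count ranged from 4 (without siFOXA1.2 replicate 1 or 2) to 15 (without siFOXA1.1 replicate 1), and the line difference gave 1 to 7 genes, with 7 without SCaBER siFOXA1.1 replicate 2. The control difference in RT112 gave 0 to 1. limma on log2(TPM + 1) gave 23 genes for the lines under siControl, 4 for the line difference and 0 for the RT112 controls, and 1 fit of all 16 libraries also gave 0 for the last. The line difference gave 1 without mitochondrial genes. With no low-count filter 3 genes passed in the pooled SCaBER comparison and 14 between the FOXA1 siRNAs there. The cause was not tested.

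Scaling moved the median of all genes in RT112 under siFOXA1.1 to -0.29 in TPM and to -0.15 with library totals alone, where the medians of the 41 genes were -1.62 and -1.50. Of all genes called in RT112, 47.9% were higher in the main fit, 21.3% in TPM and 36.9% with library totals. In SCaBER it was 48.3% and 35.2% in TPM.

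With the replicate as a block, 33 S phase genes fell in RT112 and 23 in SCaBER, with MCM5 and BLM added, and it changed no other call of a member against siControl. Between the FOXA1 siRNAs in SCaBER 13 genes passed under the block against 9. UHRF1 in SCaBER was at 0.01 under the block.

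Changes of sign occurred only in genes that did not pass. In RT112 they were POLD3 (-0.17 in TPM), PRIM1 (0.04 against siControl.1) and TIPIN (-0.01 in 1 fit of all libraries and with no filter, -0.13 with library totals, -0.27 in TPM, -0.16 against siControl.2). In SCaBER they were E2F8 (0.55 against siControl.1), MCM5 (0.01 with DESeq2 or its size factors, 0.02 against siControl.1, 0 without mitochondrial genes), POLD3 (0.07 against siControl.1) and UHRF1 (0.01 against siControl.2). Leaving out 1 library gave ranges of -0.39 to 0.09 for POLR1B, -1.30 to 0.41 for PRIM1 and -0.17 to 0.20 for TIPIN in RT112. In SCaBER the ranges were -1.83 to 0.55 for E2F8, -0.65 to 0.45 for MCM5, -2.06 to 0.60 for MRPL36, -0.43 to 0.03 for POLA1, -0.17 to 0.07 for POLD3, -1.27 to 1.09 for UBR7 and -0.43 to 0.26 for UHRF1.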
